A study of Homo sapiens with 4 samples.

Results

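The genes described here encode the cytoplasmic translation initiation factors (eIFs) and elongation factors (eEFs), together with the kinase, methyltransferases and binding proteins that carry an eIF or eEF name. They were taken as the protein-coding genes whose symbol begins with EIF1 to EIF6, or with EEF1 or EEF2, leaving out the eIF2 kinases EIF2AK1 to EIF2AK4 and EEF1E1. Of 233 gene symbols with such a name, 162 were pseudogenes or non-coding genes and 71 were protein-coding, which left 66 members of the 62710 Ensembl genes in the table. All 66 were matched to a symbol by their Ensembl identifier. HGC27 and MKN45 are established human gastric cancer lines, HGC27 from a lymph node metastasis and MKN45 from a poorly differentiated adenocarcinoma. Each line was cultured for 24 h with 0.3 µM periplocymarin, a plant cardiac glycoside that inhibits the sodium and potassium pump, or with 0.1% DMSO, the vehicle. The groups were therefore HGC27 with periplocymarin, HGC27 with DMSO, MKN45 with periplocymarin and MKN45 with DMSO, with 1 mRNA library in each of the 4 groups. Nothing in the labels says whether treated and DMSO cells were grown in separate batches.

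Translation of most cellular mRNAs begins when eIF2, carrying GTP and the initiator methionyl-tRNA, joins the small ribosomal subunit together with eIF1, eIF1A, eIF3 and eIF5. The cap-binding protein eIF4E, the scaffold eIF4G and the helicase eIF4A bring this complex to the mRNA, and the eIF4E-binding proteins compete with eIF4G for eIF4E. The complex scans to the start codon, eIF5B joins the large subunit, and eEF1A, eEF2 and eIF5A then serve elongation. Growth signalling through mTORC1 acts on the eIF4E-binding proteins and on eEF2 kinase, and the integrated stress response acts on eIF2, which is why these factors are studied in gastric and other cancers.

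The 4 libraries held 24920448 reads in treated HGC27, 26839576 in DMSO HGC27, 27690735 in treated MKN45 and 36588087 in DMSO MKN45, as recovered from the deposited values. Levels are in FPKM, reads scaled by gene length and by library size with a composition factor. Epithelial markers (5 genes) summed to 2864 FPKM in treated and 1598 FPKM in DMSO MKN45, but to only 0.399 FPKM in treated and 0.580 FPKM in DMSO HGC27, where mesenchymal markers summed to 862 and 632 FPKM, so the epithelial markers were near 0 in HGC27 although its label gives a gastric cancer cell. Markers of blood and endothelial cells (6 genes, PTPRC, CD3E, CD68, PECAM1, VWF and HBB) summed to at most 2.47 FPKM in any library. Reads from mitochondrially encoded genes made up 3.39% of the treated and 6.90% of the DMSO library of HGC27, and 5.11% of the treated and 11.1% of the DMSO library of MKN45, and this share therefore moved with treatment. Leaving these genes out and rescaling the libraries gave the same 6 calls among the members. In such bulk libraries, a smaller number of cells of one kind and less RNA of a gene per cell cannot be told apart.

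Of the 66 members 43 had a mean of 10 FPKM or more. The reads of all members together came to 2.72% of the treated and 2.65% of the DMSO library in HGC27, and to 2.65% of the treated and 2.61% of the DMSO library in MKN45. By mean FPKM over the 4 libraries, EEF1A1, which brings aminoacyl-tRNA to the ribosome, stood at the top, followed by EEF2, the translocase, EEF1G, a structural subunit of the eEF1B exchange complex, EIF1 and EIF3CL. The place of EIF3CL is uncertain, since it rests on the length used and on reads of a near-identical copy, EIF3C. EEF1A1 measured 1016 FPKM in treated HGC27 against 699 FPKM in DMSO HGC27, and 1229.5 FPKM in treated MKN45 against 999 FPKM in DMSO MKN45. EEF2 measured 754 FPKM in treated HGC27 against 791 FPKM in DMSO HGC27, and 411 FPKM in treated MKN45 against 574 FPKM in DMSO MKN45. EEF1G measured 450.4 FPKM in treated HGC27 against 415 FPKM in DMSO HGC27, and 447 FPKM in treated MKN45 against 637 FPKM in DMSO MKN45. Neighbours in this order changed places between libraries: EIF1 stood above EEF1G in treated HGC27 and below it in the other 3 libraries. At the other end, EIF4E1B, an eIF4E form known from oocytes, and the read-through genes EEF1AKMT4-ECE2 and EEF1E1-BLOC1S5 were listed at 0 in every library, and EIF4E3 and EIF4EBP3 were under the level needed for testing. EIF1AY lies on the Y chromosome; it is counted among the members and its level is not given. Levels per length are uncertain where the length that gave whole reads was far above the summed exon length in GENCODE 29, as for EIF3E (37761 against 6005 bases) and EIF3I (9526 against 1725 bases). A ratio of FPKM of the same gene between libraries does not use the length. Differences in log2(FPKM + 1) depend on it through the added 1. For EIF3E in HGC27 that difference was 0.40, against a log2 ratio of 0.44.

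Whether periplocymarin altered the factors' mRNAs was tested over both lines with limma on log2(FPKM + 1). Cell line was the block, and p-values were adjusted by Benjamini and Hochberg over all 12353 genes tested. A gene was tested where its 4 libraries averaged 1 FPKM or more and 10 reads or more, which 60 of the 66 members did. Of these 60, 6 rose (EIF1, EIF1B, EIF1AD, EIF3B, EIF4E and EIF5A2) and 0 fell at an adjusted p under 0.05. Over all genes tested, 3.43% rose and 3.17% fell. At an unadjusted p under 0.05, 15 members were higher and 7 lower, against 15.9% and 12.6% of all genes tested. The share of calls depended on level. Of genes averaging 10 FPKM or more, 8.02% rose and 1.82% fell, and of the 43 members at that level 5 rose, which is 11.6%, and 0 fell. The calls depended on the scaling between libraries: with quantile normalization 1 member rose (EIF5A2) and 3 fell (EIF2S2, EIF4EBP1 and EIF5), against 1.87% and 3.15% of all genes. With library totals alone 5 members rose, without EIF3B, and 7 fell, against 2.82% and 8.99% of all genes. Without the block for cell line, or without the filter on low values, 0 members passed, and 0 of all genes tested did. The median fitted log2 fold was 0.29 over the 60 members, against 0.062 over all genes tested. Over the 43 abundant members it was 0.41, against 0.38 over all genes at that level. The lines are the only replication, and the standard error, given after ± and moderated by limma, draws on 8.53 prior and 1 residual degrees of freedom. Fitted folds are on the log2(FPKM + 1) scale and understate the change of low genes.

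**Figure D1:**
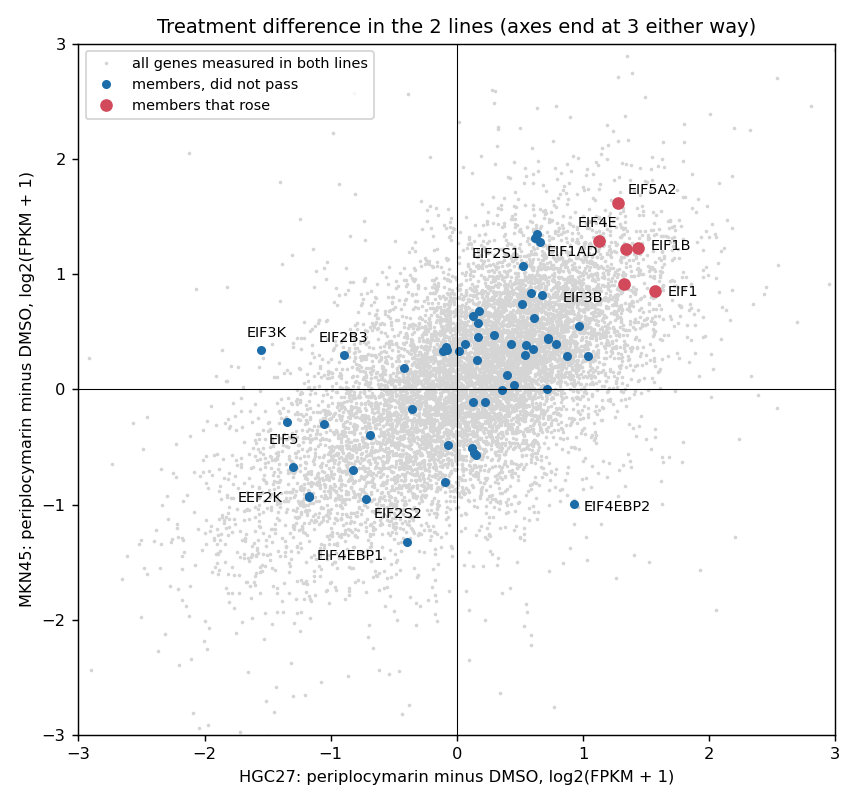
Periplocymarin minus DMSO difference in log2(FPKM + 1) in HGC27 (horizontal axis) and in MKN45 (vertical axis) for the genes measured in both lines (grey) and the tested members (blue, red where they rose). The 6 members that rose lie at the upper right with differences of at least 0.85 in both lines, and EIF3K, EIF2B3 and EIF4EBP2 lie on opposite sides of 0 in the lines.

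To show the DNA in front of the members that rose, the 300 bases around RefSeq start sites (250 before to 50 after, GRCh38.p14) were searched for CACGTG, the E-box bound by MYC and related factors, which reads the same on both strands. A window was found for 47 of the 60 tested members. A gene counted where any of its windows held the motif. CACGTG was in 12 of these 47 members (25.5%), in 12.8% of 9125 tested genes and in 8.77% of all 27305 genes with a window. It was in 3 of the 6 members that rose, EIF4E, EIF5A2 and EIF1B, and also in EEF2K, whose treated level was the lower one in both lines. The stretches holding it are printed 5′ to 3′ on the strand of the gene, with CACGTG in capitals. EIF4E is at chr4:98929184-98929373 (minus strand), EIF5A2 at chr3:170908778-170908847 (minus), EIF1B at chr3:40309617-40309676 (plus) and EEF2K at chr16:22206188-22206247 (plus).
EIF4E: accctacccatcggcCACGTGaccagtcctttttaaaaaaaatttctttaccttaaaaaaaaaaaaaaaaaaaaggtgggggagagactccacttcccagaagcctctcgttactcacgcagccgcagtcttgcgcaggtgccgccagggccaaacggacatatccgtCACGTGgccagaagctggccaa
EIF5A2: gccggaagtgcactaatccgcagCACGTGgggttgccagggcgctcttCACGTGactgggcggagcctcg
EIF1B: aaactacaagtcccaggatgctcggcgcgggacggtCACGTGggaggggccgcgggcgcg
EEF2K: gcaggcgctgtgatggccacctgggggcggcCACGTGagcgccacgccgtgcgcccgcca
The first base of the motif lies 225 and 72 bases before the start of EIF4E, 187 and 162 before EIF5A2, 54 before EIF1B and 59 before EEF2K. Of the 12 members with the motif 3 rose, and of the 35 without it 3 rose. The 12 with it had median differences of 0.33 in HGC27 and 0.34 in MKN45, and the 35 without it had 0.52 in HGC27 and 0.39 in MKN45.

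Among the genes grouped under start codon recognition and the ternary complex, EIF1, EIF1B and, placed there by its name, EIF1AD rose. EIF1 keeps the scanning small subunit open and enforces AUG selection, and EIF1B is its close paralog. EIF1 (ENSG00000173812, chr17:41688885-41692668 in GRCh38, plus strand) measured 486 FPKM in treated HGC27 against 163 FPKM in DMSO HGC27, and 226 FPKM in treated MKN45 against 124 FPKM in DMSO MKN45. EIF1B (ENSG00000114784, chr3:40309684-40312424, plus strand) measured 53.2 FPKM in treated HGC27 against 19.1 FPKM in DMSO HGC27, and 47.7 FPKM in treated MKN45 against 19.8 FPKM in DMSO MKN45. In both lines the treated level of each gene lay above both DMSO levels. The share of all genes whose treated and DMSO levels separate in this way is not given. Here and below, such separation therefore describes levels only, and for members that rose it restates the rise. EIF1 rose by 1.21 on the log2 scale (± 0.28, limma, Benjamini-Hochberg adjusted p = 0.0396) and EIF1B by 1.33 (± 0.27, adjusted p = 0.0297). For EIF1 the rise was unequal between lines, at 1.57 in HGC27 and 0.85 in MKN45, and EIF1B was 9.87% of the summed EIF1 and EIF1B level in treated HGC27 and 10.5% in DMSO HGC27, 17.4% in treated MKN45 and 13.7% in DMSO MKN45. EIF1AD, a nuclear protein with an eIF1A-like domain, (ENSG00000175376, chr11:65996545-66002176, minus strand) measured 17.1 (treated) against 6.13 (DMSO) FPKM in HGC27 and 33.6 (treated) against 13.9 (DMSO) FPKM in MKN45, and rose by 1.28 (± 0.28, limma adjusted p = 0.0331). Its exons overlap those of BANF1 on the opposite strand, which stood at 83.1 FPKM in treated and 72.9 FPKM in DMSO HGC27 and at 85.7 FPKM in treated and 93.4 FPKM in DMSO MKN45. The strand setting of the counting is not given in the sources used here, so reads of the pair may have been shared, and a part of BANF1 in the EIF1AD values was not tested. EIF1AX, the X-linked eIF1A gene that works beside eIF1 in scanning, measured 28.97 (treated) against 19.9 (DMSO) FPKM in HGC27 and 119 (treated) against 70.7 (DMSO) FPKM in MKN45 and did not pass (log2 fold 0.63 ± 0.27, limma adjusted p = 0.164).

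EIF5, the GTPase-activating protein that triggers GTP hydrolysis by eIF2 and opposes eIF1 at the start codon, differed in the other direction without passing the test. EIF5 measured 27.3 FPKM in treated HGC27 against 71.1 FPKM in DMSO HGC27, and 35.0 FPKM in treated MKN45 against 42.8 FPKM in DMSO MKN45, a fitted log2 fold of -0.81 ± 0.32 (limma adjusted p = 0.135). The treated level lay below the DMSO level in each line, by -1.35 in HGC27 and by -0.28 in MKN45 on the log2 scale, and it lay below both DMSO levels in both treated libraries. The ratio of EIF1 to EIF5 in FPKM was 17.8 in treated HGC27 against 2.30 in DMSO HGC27, and 6.45 in treated MKN45 against 2.91 in DMSO MKN45. A scaling that multiplies each library by 1 factor does not alter such a ratio, but quantile normalization does. EIF5 was named after its values were seen, and EIF1 is a member that rose. The ratio therefore restates their differences and is no separate support.

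**Figure D2:**
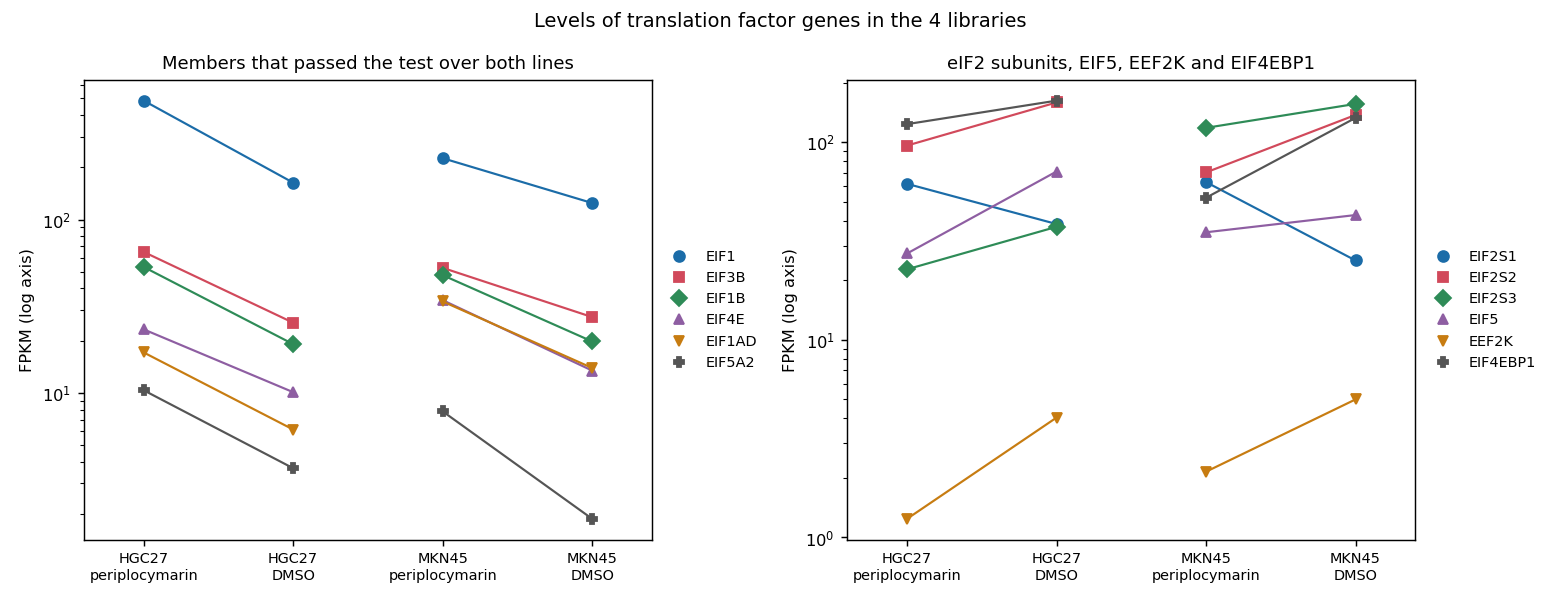
FPKM on a log axis in the 4 libraries, with a line joining the periplocymarin and the DMSO library of each cell line, for the 6 members that rose (left) and for the eIF2 subunits, EIF5, EEF2K and EIF4EBP1 (right). Every line on the left slopes down from periplocymarin to DMSO; on the right EIF2S1 slopes down and the other 5 slope up.

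The 3 subunits of eIF2 did not differ in the same direction. EIF2S1, the alpha subunit whose phosphorylation is the switch of the integrated stress response, measured 61.6 FPKM in treated HGC27 against 38.5 FPKM in DMSO HGC27, and 62.8 FPKM in treated MKN45 against 25.2 FPKM in DMSO MKN45. EIF2S2, the beta subunit, measured 96.2 FPKM in treated HGC27 against 159 FPKM in DMSO HGC27, and 70.3 FPKM in treated MKN45 against 137 FPKM in DMSO MKN45. EIF2S3, the gamma subunit that binds GTP and the initiator tRNA, measured 22.7 FPKM in treated HGC27 against 37.3 FPKM in DMSO HGC27, and 118 FPKM in treated MKN45 against 156 FPKM in DMSO MKN45. EIF2S1 was higher and EIF2S2 lower in the treated library of each line with no overlap between treated and DMSO libraries, while the treated MKN45 level of EIF2S3 lay above its DMSO HGC27 level. None passed the test, with fitted log2 folds of 0.97 ± 0.29 for EIF2S1, -0.84 ± 0.27 for EIF2S2 and -0.54 ± 0.27 for EIF2S3 (limma adjusted p = 0.0682, 0.0812 and 0.219). Alpha to beta, the ratio was 0.640 in treated HGC27 against 0.243 in DMSO HGC27 and 0.893 in treated MKN45 against 0.184 in DMSO MKN45. Alpha to gamma, it was 2.71 in treated HGC27 against 1.03 in DMSO HGC27 and 0.532 in treated MKN45 against 0.161 in DMSO MKN45. EIF2S3B, a retrocopy of EIF2S3 whose near identity makes its counts uncertain, measured 0.270 (treated) against 1.86 (DMSO) FPKM in HGC27 and 2.55 (treated) against 5.77 (DMSO) FPKM in MKN45 (-1.05 ± 0.30, limma adjusted p = 0.0650). In this start codon and ternary complex group 3 of 11 tested members rose, EIF1AD among them, 0 fell and the median fitted log2 fold was 0.36.

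**Figure D3:**
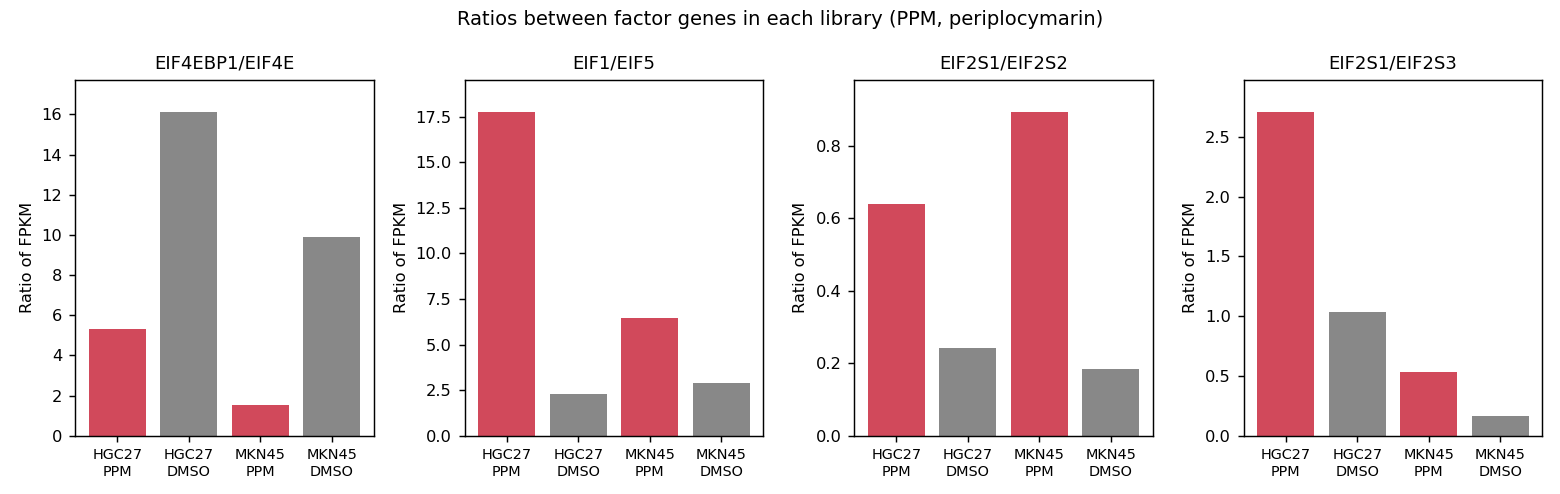
Ratio of FPKM between pairs of factor genes within each library (linear axes from 0; red, periplocymarin, marked PPM; grey, DMSO). EIF4EBP1 to EIF4E is lower, and EIF1 to EIF5, EIF2S1 to EIF2S2 and EIF2S1 to EIF2S3 are higher, in the periplocymarin library of both lines. EIF5, EIF2S2 and EIF2S3 were named after their values were seen. EIF2S2 to EIF2S3, not shown, was 4.23 in treated and 4.26 in DMSO HGC27, and 0.595 in treated and 0.879 in DMSO MKN45.

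eIF2B recharges eIF2 with GTP and is the target that phosphorylated eIF2 blocks. None of its 5 subunit genes passed the test, and their median fitted log2 fold was 0.25. The beta subunit gene EIF2B2 had the highest fitted value, with 20.5 FPKM in treated HGC27 against 13.3 FPKM in DMSO HGC27, and 12.1 FPKM in treated MKN45 against 6.32 FPKM in DMSO MKN45 (0.72 ± 0.28, limma adjusted p = 0.134). The gamma subunit gene EIF2B3 had the lowest and differed in sign between lines, with 5.19 FPKM in treated HGC27 against 10.5 FPKM in DMSO HGC27, and 10.4 FPKM in treated MKN45 against 8.26 FPKM in DMSO MKN45 (-0.30 ± 0.34, limma adjusted p = 0.595). The other 3 subunits, EIF2B1, EIF2B4 and EIF2B5, had fitted log2 folds between 0.11 and 0.59.

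Of the 14 genes of eIF3, the scaffold that holds the small subunit and recruits the mRNA, 1 rose and 0 fell, and the median fitted log2 fold was 0.23. EIF3B, a core subunit of the complex (ENSG00000106263, chr7:2354086-2380745, plus strand), measured 65.0 FPKM in treated HGC27 against 25.4 FPKM in DMSO HGC27, and 52.6 FPKM in treated MKN45 against 27.3 FPKM in DMSO MKN45. Both treated levels lay above both DMSO levels, and EIF3B rose by 1.12 (± 0.28, limma adjusted p = 0.0460). That call is the nearest to the threshold among the 6, and with libraries scaled to their totals alone its adjusted p was 0.0562. EIF3J, a loosely bound subunit, measured 64.0 (treated) against 41.3 (DMSO) FPKM in HGC27 and 120.0 (treated) against 47.6 (DMSO) FPKM in MKN45 and did not pass (0.97 ± 0.29, limma adjusted p = 0.0699). A further 7 subunits (EIF3A, EIF3D, EIF3E, EIF3G, EIF3H, EIF3I and EIF3M) had higher treated than DMSO levels in both lines without passing, with fitted log2 folds between 0.18 and 0.62. EIF3K, a peripheral subunit, had the lowest fitted value of the complex and measured 4.37 FPKM in treated HGC27 against 14.7 FPKM in DMSO HGC27, and 15.3 FPKM in treated MKN45 against 11.9 FPKM in DMSO MKN45. It was lower in the treated library of HGC27 and higher in that of MKN45. EIF3CL and EIF3C encode nearly the same protein, and their FPKM kept a ratio of 2.06 in treated and 2.05 in DMSO HGC27 and of 2.03 in treated and 2.07 in DMSO MKN45, so how reads were divided between the copies is uncertain. EIF3CL had fewer reads than EIF3C in each library, such as 10209 against 11265 in treated HGC27. Its higher FPKM comes from the shorter length used, 3053 against 6925 bases. EIF3CL measured 142 (treated) against 150.1 (DMSO) FPKM in HGC27 and 152 (treated) against 119 (DMSO) FPKM in MKN45, a fitted log2 fold of 0.13 ± 0.27 whose sign turned with quantile normalization and with library totals.

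**Figure D4:**
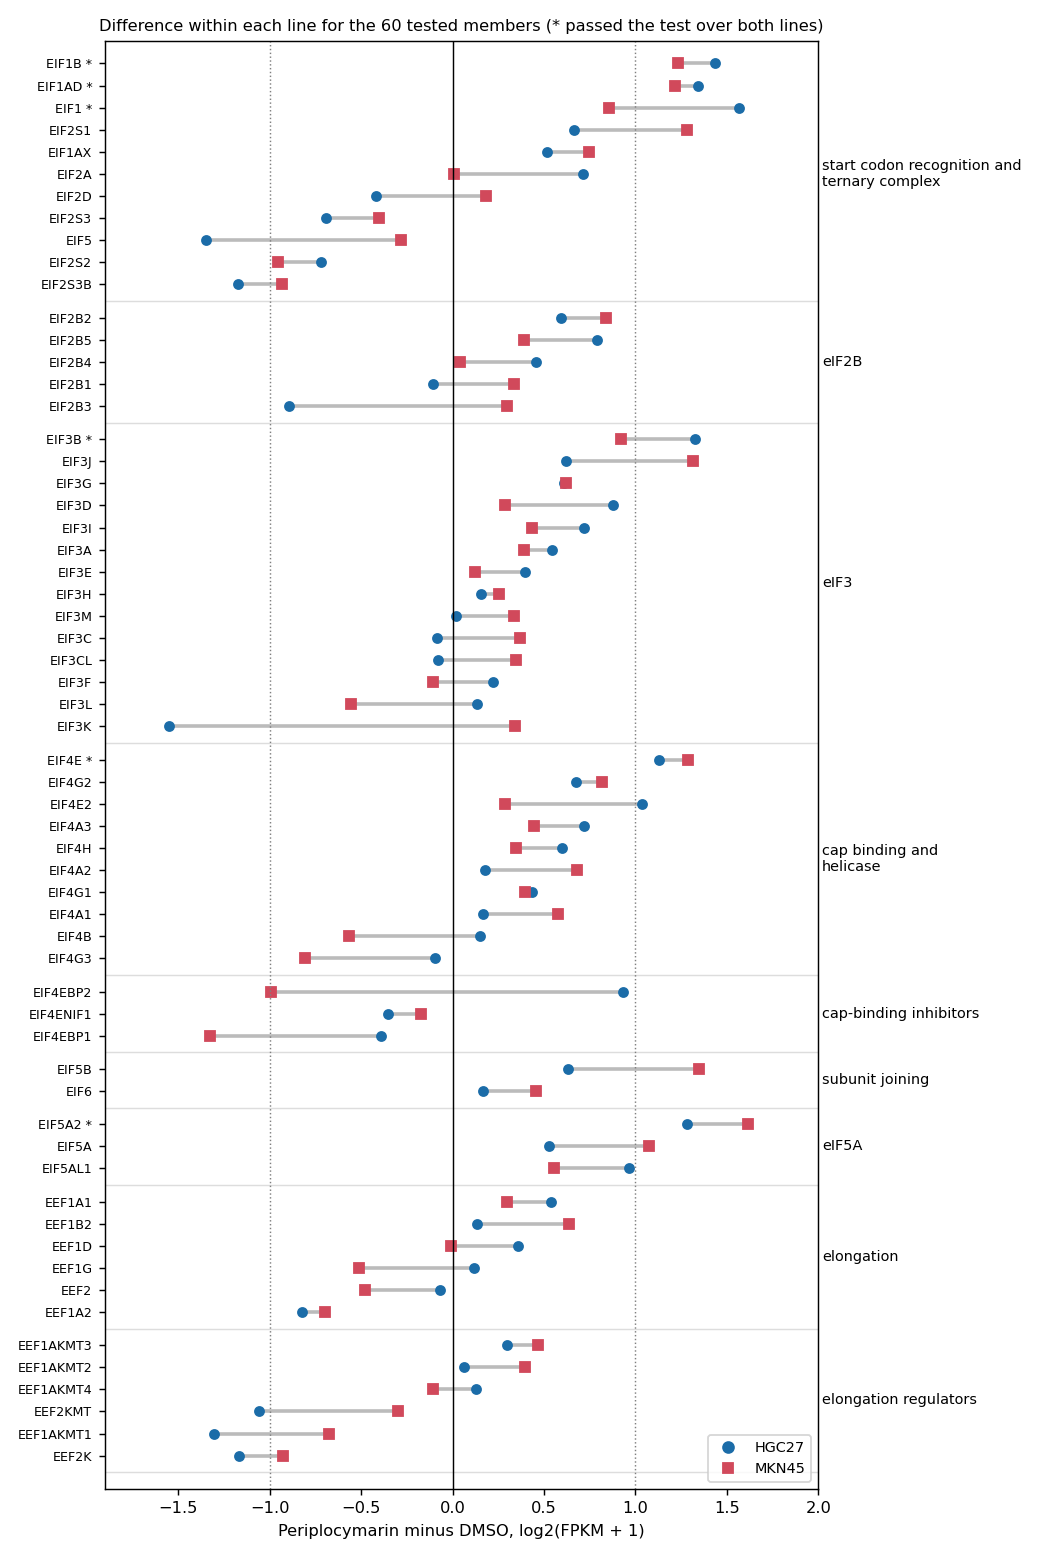
Periplocymarin minus DMSO difference in log2(FPKM + 1) for each of the 60 tested members, by role, in HGC27 (circles) and MKN45 (squares). Dotted lines mark a difference of 1 either way. The 2 symbols of a member lie on the same side of 0 for 47 members; asterisks mark the 6 that passed the test over both lines.

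Among the cap-binding and helicase genes 1 of 10 tested members rose, 0 fell, and the median fitted log2 fold was 0.45. EIF4E, which binds the mRNA cap (ENSG00000151247, chr4:98871684-98930637, minus strand), measured 23.2 FPKM in treated HGC27 against 10.1 FPKM in DMSO HGC27, and 34.2 FPKM in treated MKN45 against 13.4 FPKM in DMSO MKN45. Both treated levels lay above both DMSO levels, and EIF4E rose by 1.21 (± 0.28, limma adjusted p = 0.0378). Reads from EIF4E pseudogenes were 3.66% of the EIF4E and pseudogene reads in treated and 4.40% in DMSO HGC27, and 3.67% in treated and 4.27% in DMSO MKN45. EIF4E also made up 72.7% of the summed level of EIF4E, EIF4E2 and EIF4E3 in treated against 71.0% in DMSO HGC27, and 82.1% in treated against 68.1% in DMSO MKN45. The scaffold EIF4G1 measured 63.6 (treated) against 46.9 (DMSO) FPKM in HGC27 and 91.4 (treated) against 69.2 (DMSO) FPKM in MKN45, and the helicases EIF4A1 and EIF4A2 measured 121 (treated) against 108 (DMSO) FPKM in HGC27 and 152 (treated) against 101 (DMSO) FPKM in MKN45, and 92.9 (treated) against 82.0 (DMSO) FPKM in HGC27 and 153 (treated) against 94.9 (DMSO) FPKM in MKN45. None of these 3 passed, and the sign of each fitted value turned with quantile normalization. EIF4G2, which supports cap-independent initiation and does not bind eIF4E, measured 160.1 (treated) against 100.04 (DMSO) FPKM in HGC27 and 145 (treated) against 81.7 (DMSO) FPKM in MKN45 (0.74 ± 0.26, limma adjusted p = 0.106). EIF4G3 had the lowest fitted value of the group (-0.45 ± 0.30, limma adjusted p = 0.354), and its share of the 3 EIF4G genes was 3.20% in treated and 5.14% in DMSO HGC27, and 3.04% in treated and 8.30% in DMSO MKN45.

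None of the tested binding proteins that hold eIF4E away from eIF4G passed the test. EIF4EBP1, which mTORC1 phosphorylates to release eIF4E, measured 123 FPKM in treated HGC27 against 162 FPKM in DMSO HGC27, and 52.4 FPKM in treated MKN45 against 133 FPKM in DMSO MKN45. The treated level was lower in each line, by -0.39 in HGC27 and -1.32 in MKN45 on the log2 scale, and did not pass (-0.86 ± 0.30, limma adjusted p = 0.106). The ratio of EIF4EBP1 to EIF4E in FPKM was 5.32 in treated HGC27 against 16.1 in DMSO HGC27, and 1.53 in treated MKN45 against 9.89 in DMSO MKN45. The paralog EIF4EBP2 measured 19.4 FPKM in treated HGC27 against 9.69 FPKM in DMSO HGC27, and 9.01 FPKM in treated MKN45 against 19.0 FPKM in DMSO MKN45, a difference of 0.93 in HGC27 and -0.99 in MKN45. It was the member with the largest gap between lines, and its fitted log2 fold over both lines was -0.03 ± 0.42. EIF4ENIF1, which carries eIF4E into the nucleus and represses bound mRNAs, had a fitted log2 fold of -0.26 ± 0.29. The 3 tested inhibitors had 0 calls and a median of -0.26.

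EIF5B, the GTPase that joins the large subunit, measured 32.9 (treated) against 20.9 (DMSO) FPKM in HGC27 and 63.9 (treated) against 24.5 (DMSO) FPKM in MKN45 and did not pass (0.99 ± 0.30, limma adjusted p = 0.0694). EIF6, which keeps the free large subunit from joining too early, measured 53.9 (treated) against 47.9 (DMSO) FPKM in HGC27 and 84.5 (treated) against 61.4 (DMSO) FPKM in MKN45 (0.31 ± 0.27, limma adjusted p = 0.476), and its sign turned with quantile normalization.

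eIF5A carries the modified lysine hypusine and relieves stalled elongation and termination; its second gene, EIF5A2, has been studied as an oncogene in epithelial cancers. EIF5A2 (ENSG00000163577, chr3:170888415-170908693, minus strand) measured 10.3 FPKM in treated HGC27 against 3.66 FPKM in DMSO HGC27, and 7.80 FPKM in treated MKN45 against 1.87 FPKM in DMSO MKN45. It had the highest fitted value of all members and rose by 1.45 (± 0.29, limma adjusted p = 0.0286), and both treated levels lay above both DMSO levels. Without the pseudocount, treated over DMSO was 1.50 in HGC27 (95% counting interval 1.36 to 1.63) and 2.06 in MKN45 (1.89 to 2.23) on the log2 scale. EIF5A, the main gene, measured 104 (treated) against 71.9 (DMSO) FPKM in HGC27 and 111 (treated) against 52.2 (DMSO) FPKM in MKN45 and did not pass (0.80 ± 0.28, limma adjusted p = 0.102). EIF5A2 was 9.02% of the summed level of both genes in treated and 4.85% in DMSO HGC27, and 6.56% in treated and 3.46% in DMSO MKN45. EIF5AL1, an intronless copy nearly identical to EIF5A and therefore uncertain, measured 5.12 (treated) against 2.13 (DMSO) FPKM in HGC27 and 4.08 (treated) against 2.46 (DMSO) FPKM in MKN45 (0.76 ± 0.30, limma adjusted p = 0.134). All 3 were higher in the treated library of each line, and 1 of the 3 passed.

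None of the 6 elongation factor genes passed, and their median fitted log2 fold was -0.010. EEF1A1 had the highest fitted value (0.42 ± 0.25, limma adjusted p = 0.299). Its 49 named pseudogenes took 7.26% of the EEF1A1 and pseudogene reads in treated and 10.6% in DMSO HGC27, and 7.37% in treated and 11.1% in DMSO MKN45, so part of its reads may have been assigned elsewhere. EEF2 (-0.27 ± 0.26, limma adjusted p = 0.513) and EEF1G (-0.20 ± 0.27, limma adjusted p = 0.668) had lower treated than DMSO levels in MKN45, by -0.48 and -0.51 on the log2 scale, and differences nearer 0 in HGC27, at -0.07 and 0.12. EEF1A2, a form typical of neurons and muscle that some tumours express, measured 12.2 (treated) against 22.5 (DMSO) FPKM in HGC27 and 1.56 (treated) against 3.15 (DMSO) FPKM in MKN45 and had the lowest fitted value (-0.76 ± 0.28, limma adjusted p = 0.119). It was 1.19% of the summed EEF1A1 and EEF1A2 level in treated and 3.12% in DMSO HGC27, and 0.127% in treated and 0.315% in DMSO MKN45.

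Many mRNAs of the translation machinery begin with a cytosine followed by a run of pyrimidines, the 5′ terminal oligopyrimidine motif through which mTORC1 and LARP1 control translation. A C followed by at least 4 C or T bases exactly at a RefSeq start was searched for in any window of a gene. It was found in 13 of the 47 members with a window (27.7%), in 7.64% of tested genes and in 5.14% of all genes with a window. The run was exactly at the start in 0 of the 6 members that rose. A run within 10 bases of the start was in 2 of these 6, in 57.4% of members with a window and in 41.9% of tested genes. Start sites of some of these 13 members are printed from 6 bases before the start to base 14 of the transcript. EIF2A, EIF2D, EIF2S3B, EIF3K and EIF3M also had the run exactly at a start and are not printed. The run is in capitals, and elongation factor and initiation factor genes share this start.
EEF1A1: aacgttCTTTTTCgcaacgg
EEF2: agcgttCTCTTCCgccgtcg
EEF1B2: tcgggtCCTTTTTCCTCTCT
EIF4B: ccgggtCTTTTgcgttctct
EIF4A2: cgctgtCTTTTCagtcgggc
EIF2S3: tccttcCTCTTTTggcaaca
EIF3D: tgtttcCTCTTTTCCTggtt
EIF3F: cgcctcCTTCTTTCTCgaca
These lie in the order given at chr6:73521019-73521038 (minus strand), chr19:3985450-3985469 (minus), chr2:206159889-206159908 (plus), chr12:53006450-53006469 (plus), chr3:186783571-186783590 (plus), chrX:24054950-24054969 (plus), chr22:36529153-36529172 (minus) and chr11:7987331-7987350 (plus). The 13 members with such a start had median differences of 0.13 in HGC27 and 0.18 in MKN45, and the 34 other members with a window had 0.60 in HGC27 and 0.44 in MKN45. EIF4B, which stimulates the eIF4A helicase, is an example whose difference had opposite signs, at 124 (treated) against 112 (DMSO) FPKM in HGC27 and 83.7 (treated) against 124 (DMSO) FPKM in MKN45. These are descriptions of the windows, and start sites used in these cells were not measured.

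Among the 6 tested regulators of elongation, 0 passed and the median fitted log2 fold was -0.34. EEF2K, the kinase that phosphorylates eEF2 and slows translocation, measured 1.24 FPKM in treated HGC27 against 4.04 FPKM in DMSO HGC27, and 2.15 FPKM in treated MKN45 against 4.99 FPKM in DMSO MKN45. Both treated levels lay below both DMSO levels, and without the pseudocount treated over DMSO was -1.70 in HGC27 (95% counting interval -1.91 to -1.50) and -1.21 in MKN45 (-1.38 to -1.06) on the log2 scale. Its fitted log2 fold was -1.05 ± 0.30 (limma adjusted p = 0.0621). EEF1AKMT1, a lysine methyltransferase of eEF1A, measured 0.380 (treated) against 2.40 (DMSO) FPKM in HGC27 and 1.28 (treated) against 2.65 (DMSO) FPKM in MKN45 (-0.99 ± 0.33, limma adjusted p = 0.0879), and EEF2KMT, which methylates eEF2, measured 2.60 (treated) against 6.49 (DMSO) FPKM in HGC27 and 3.17 (treated) against 4.14 (DMSO) FPKM in MKN45 (-0.68 ± 0.31, limma adjusted p = 0.189). EEF1AKMT3 had the highest fitted value of the group (0.38 ± 0.30, limma adjusted p = 0.419).

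Within each line there is 1 library per treatment and no test, and members were counted at a difference of at least 1 in log2(FPKM + 1). In HGC27, 7 of 60 measured members were at least 2-fold higher and 6 were at least 2-fold lower, against 9.72% and 10.4% of all measured genes. In MKN45, 8 of 61 were higher and 1 was lower, against 8.21% and 8.94%. The median difference was 0.26 over the members and 0.11 over all genes in HGC27, and 0.33 over the members and 0.068 over all genes in MKN45. On this scale EIF1B, EIF1AD, EIF4E and EIF5A2 were at least 2-fold higher in both lines, 4 of 60 against 3.38% of all genes measured in both. On the same scale 0 members were lower in both, against 3.35%. The added 1 shrinks the change of low genes. As FPKM ratios, treated over DMSO, EEF2K was more than 2-fold lower in both lines (0.307 in HGC27, 0.431 in MKN45). So were EIF2S3B (0.145 in HGC27, 0.442 in MKN45) and EEF1AKMT1 (0.158 in HGC27, 0.484 in MKN45). The share of all genes by this ratio is not given, so these 3 cannot be read as particular to the members. On the log2(FPKM + 1) scale, genes from 1 to 10 FPKM were often at least 2-fold lower. In HGC27 14.1% of them were, and 5 of 20 members at that level. In MKN45 11.4% of them were, and 0 of 17 members. The sign was the same in both lines for 47 of 60 members, which is 78.3%, against 72.9% of all genes. The lines shared no library, so these counts are separate measurements. In HGC27 the members at 100 FPKM and above (11 genes) had a median difference of 0.13 against 0.52 over the 294 genes at that level, while in MKN45 the 13 members at that level had 0.30 against 0.22 over 334 genes.

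The median over a role group depended on the scaling between libraries. With quantile normalization the median over the 60 members was -0.026, and with library totals alone it was 0.018, where the median of all genes tested was itself -0.16. The 3 eIF5A genes were above 0 under both scalings, with medians of 0.94 and 0.54, and the 3 cap-binding inhibitors were below 0 under both, with medians of -0.30 and -0.49. For eIF3, 12 of 14 fitted values were above 0 as deposited, against 7 of 14 with quantile normalization and 7 of 14 with library totals. For the cap-binding and helicase genes 8 of 10 were above 0 as deposited, 4 with quantile normalization and 8 with library totals, and for the start codon group the counts were 6, 5 and 6 of 11.

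Between the DMSO libraries of the lines, 2 of 60 measured members were at least 2-fold higher in HGC27 than in MKN45 and 7 were at least 2-fold lower, against 14.3% and 17.4% of all measured genes, so neither count is above the share of all genes. With quantile normalization or library totals 3 were lower, and the share of all genes is not given for those settings. EEF1A2 was higher in HGC27 by 2.50 in log2(FPKM + 1) and EIF3G by 1.21. The 7 lower in HGC27 were EIF2S3, EIF1AX, EIF2S3B, EIF3I, EEF1AKMT4, EIF1AD and EIF3D, with differences between -2.04 and -1.03. EIF2S3 and EIF1AX are both X-linked and stood at 37.3 and 19.9 FPKM in DMSO HGC27, against 156 and 70.7 FPKM in DMSO MKN45. These are values of 1 library per line.

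Genes outside the set that act in the same steps were counted over the same fit, in which 3.43% of all genes rose and 3.17% fell. Of genes averaging 10 FPKM or more, 8.02% rose and 1.82% fell. The lists were written with earlier results of these data known, so their counts are descriptions and no independent support. Among 8 genes of termination, recycling and rescue 2 rose and 0 fell. ABCE1, which splits terminated ribosomes and takes part in reinitiation, measured 67.7 (treated) against 20.1 (DMSO) FPKM in HGC27 and 98.5 (treated) against 41.9 (DMSO) FPKM in MKN45 and rose by 1.46 ± 0.28 (limma adjusted p = 0.0259), and HBS1L, a ribosome rescue GTPase, rose by 1.39 ± 0.32 (adjusted p = 0.0387). Among 11 helpers bound to mRNA 1 rose, the helicase DDX3X, with 38.5 (treated) against 9.84 (DMSO) FPKM in HGC27 and 105 (treated) against 34.6 (DMSO) FPKM in MKN45 (log2 fold 1.72 ± 0.28, limma adjusted p = 0.0232). Among 9 eIF2 kinases and phosphatase subunits 1 rose, PPP1R15B, the constitutive eIF2 phosphatase subunit, with 52.4 (treated) against 20.6 (DMSO) FPKM in HGC27 and 31.1 (treated) against 15.8 (DMSO) FPKM in MKN45 (1.12 ± 0.28, limma adjusted p = 0.0464), while the kinase EIF2AK1 measured 31.8 (treated) against 46.3 (DMSO) FPKM in HGC27 and 25.7 (treated) against 37.6 (DMSO) FPKM in MKN45 and did not pass. Of 12 genes of mTORC1 and MNK signalling RPS6KB1, the S6 kinase, rose (1.37 ± 0.29, limma adjusted p = 0.0321), and DDIT4 and SESN2, which restrain mTORC1, fell (-3.17 ± 0.38, limma adjusted p = 0.00956, and -1.34 ± 0.28, limma adjusted p = 0.0314). Of 9 enzymes of hypusine and diphthamide synthesis, the modifications of eIF5A and eEF2, DPH5, a diphthamide methyltransferase, fell, at 0.671 (treated) against 6.75 (DMSO) FPKM in HGC27 and 1.27 (treated) against 4.53 (DMSO) FPKM in MKN45 (-1.75 ± 0.33, limma adjusted p = 0.0257). The hypusine enzymes DHPS and DOHH did not pass. Of 9 mitochondrial translation factors GFM1, the mitochondrial elongation factor G, rose (1.34 ± 0.28, limma adjusted p = 0.0308), and 0 fell. Over the 58 tested genes of these lists 6 rose and 3 fell. With quantile normalization and with library totals alone PPP1R15B no longer passed and the other 8 did. Without the block or the low-value filter 0 of these genes passed, and 0 of all genes tested did.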

How the data were processed

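Poly(A) mRNA libraries of HGC27 and MKN45 cells, 1 per line and treatment, were analysed from 1 table of 62710 genes. The authors deposited FPKM without naming the unit, which was inferred from the values. Per the submitters' processing notes, HISAT2 2.1.0, fastp 2.0 and the build hg38 were used, in roles not stated. Which counter, annotation and strand setting made the values is not given in the sources used here. Symbols and coordinates came from GENCODE 29. Whole reads were recovered from the value of 1 read in each library and a gene length, within 0.0001 reads, for 20297 of 20299 genes above 0 in at least 3 libraries; the GENCODE 29 length itself gave whole reads for 15204 of 30457 genes (49.9%), and for the others the multiple of the shortest fitting length closest to it was used, a rule kept after 3 were compared with the calls in view. The recovered library totals imply composition factors of 0.945, 1.20, 0.861 and 1.01 for treated HGC27, DMSO HGC27, treated MKN45 and DMSO MKN45, within 0.207% of trimmed-mean factors computed from the reads once both sets have the same geometric mean.

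Values of log2(FPKM + 1) over the whole table were tested with limma 3.58.1 (lmFit, eBayes with trend, R 4.3.3). The same fit was also run on simulated counts, in which changed genes had the same fold in both lines. That setting does not cover responses that differ between lines, and its outcome is not given. The block follows from the design, since the libraries of a pair are the same cell line. The p-values rest on the spread between 2 lines as moderated by limma, with 8.53 prior and 1 residual degrees of freedom. They therefore draw more on the variance of genes at a like level than on a gene's own spread between the lines. Counting intervals (Clopper-Pearson, 95%) spanned a median of 0.046 log2 units to either side for members averaging 10 FPKM or more and at most 0.93, and they cover counting error only, since no molecular identifiers are given.

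Members, role groups, other gene lists and tests were chosen with earlier results of these data known. The named members are those past the test, those 2-fold different the same way in both lines, 10 fixed members, the highest and lowest fitted value of each role group, the 5 most abundant, and the 3 with the largest gap between lines. EIF5, EIF2S2, EIF2S3, EIF1AX, EIF3J, EIF4G2, EIF4B, EIF3L, EIF3C, EEF1AKMT1 and EEF2KMT were named after their values were seen, as were the sequence motifs, of which 4 forms were searched in RefSeq windows. TGATGNAA (both strands) was in 0 of 47 members with a window, in 2.73% of tested genes and in 4.46% of all genes with a window. A pyrimidine run within 10 bases of the start was in 57.4% of these members, 41.9% of tested genes and 38.4% of all genes with a window. Alternatives were quantile normalization, library totals alone, a pseudocount of 0.1, a 10 FPKM floor or no filter on low values, limma-voom on recovered reads, no line block, and mitochondrially encoded genes left out.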

Additional observations from a re-analysis of the deposited data

Results flagged for a closer look

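Among the members, 3 had treatment differences of opposite sign in the lines, each of at least 0.25 in log2(FPKM + 1), a size set after the values were seen. With 1 library per group the gap between lines was not tested, and 13 of the 60 tested members had opposite signs of any size. EIF4EBP2 was higher with periplocymarin in HGC27 (19.4 against 9.69 FPKM in DMSO) and lower in MKN45 (9.01 against 19.0 FPKM in DMSO), a gap, HGC27 minus MKN45, of 1.93. EIF3K was lower with periplocymarin in HGC27 (4.37 against 14.7 FPKM in DMSO) and higher in MKN45 (15.3 against 11.9 FPKM in DMSO), a gap of -1.89. EIF2B3 was lower with periplocymarin in HGC27 (5.19 against 10.5 FPKM in DMSO) and higher in MKN45 (10.4 against 8.26 FPKM in DMSO), a gap of -1.19.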

How the results depend on the processing

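The 6 members that rose, and 0 that fell, remained the same 6 and 0 with mitochondrially encoded genes left out. With quantile normalization 1 rose (EIF5A2) and 3 fell (EIF2S2, EIF4EBP1 and EIF5), and with library totals alone 5 of the 6 rose and 7 fell (EEF1A2, EEF1AKMT1, EEF2K, EIF2S2, EIF2S3B, EIF4EBP1 and EIF5). With a pseudocount of 0.1, 9 rose and 2 fell, against 6.07% and 5.91% of all genes; with a floor of 10 FPKM, 9 of 43 rose and 3 fell, against 23.7% and 4.47% of all genes; with limma-voom on recovered reads, 10 rose and 2 fell, against 8.20% and 6.43% of all genes. With no low-value filter 0 members and 0 of all 32364 genes passed by limma (15 members higher and 5 lower at an unadjusted p under 0.05). With no replicate block 0 members and 0 of all 12353 genes passed by limma (4 members higher and 0 lower at an unadjusted p under 0.05). The block pairs the libraries of a line, and leaving out a library breaks a pair and leaves no residual degrees of freedom, so the differences within each line stand for leaving out the other line. Reversed signs of fitted log2 folds came with quantile normalization for EIF3CL (-0.26), EIF3C (-0.34), EIF4A1 (-0.049), EIF4A2 (-0.0054), EIF4G1 (-0.069) and EIF6 (-0.17), and with library totals for EIF3CL (-0.15), EIF3C (-0.14) and, outside the members, DHPS (-0.19). In HGC27 the members' median was -0.0057 with quantile normalization, -0.020 with library totals and 0.52 with the floor; library totals gave 3 higher and 10 lower, and the floor 1 lower. In MKN45 quantile normalization gave 1 higher, 3 lower and a median of 0.061, library totals 6 lower and a median of 0.12, the pseudocount 4 lower and the mitochondrial setting 2 lower. Between DMSO libraries, quantile normalization gave 4 higher and 3 lower in HGC27, and library totals 3 lower. The share of all genes is not given for these within-line and DMSO counts under the alternative settings. The counts therefore cannot be read as particular to the members. Library totals put the median of all genes at -0.20 in HGC27, against 0.11 as deposited, and at -0.12 in MKN45, against 0.068. With quantile normalization the median of all genes was 0.046 in HGC27 and 0.034 in MKN45. With the floor it was 0.48 in HGC27. The cause of these shifts was not tested. Depth limits the members with few reads, such as EEF1AKMT1, with 12 reads in treated HGC27.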
